A study of Mus musculus with 2 samples.

Results

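Interferon-stimulated genes were examined in liver cells by droplet single-cell RNA sequencing, as 45 mouse genes chosen by symbol, of which 43 had a row among the 32285 genes counted. Mx1 and Mx2 were not found by symbol. The series held 2 liver samples, 1 labelled Cebpa knockout and 1 labelled wild type, both from mice fed for 2 weeks a diet that the labels call 40% HFCFD (high fat, cholesterol and fructose). The study's methods describe male Cebpa fl/fl mice, backcrossed to C57BL/6N, in which a Cre under the albumin promoter, active in hepatocytes, removes Cebpa, the gene of a hepatocyte transcription factor. Lines with a constant and with a tamoxifen-dependent Cre are described, and the study's results tie this short feeding to the constant Cre. Which line gave the knockout sample, whether the wild type carried the fl/fl alleles, the age at collection and how many livers went into a sample are not stated in the labels or the methods. Livers were perfused and digested, cells were purified on 35% Percoll, and each sample had its own capture lane with a target of up to 6000 cells.

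The joined matrix marks each barcode with suffix 1 or suffix 2, and no label ties a suffix to a genotype. The libraries are therefore called suffix 1 and suffix 2, with 1 library each and no replicates. In deep hepatocyte-like cells the suffix 1 library held Cebpa at 1.18 CPM (UMIs per 1000000 UMIs, exact Poisson 95% interval 0.663 to 1.95), and the suffix 2 library at 108.4 CPM (100.7 to 116.5). No genotype was read from this value. After filtering, 11617 cells with 41533901 UMIs (suffix 1) and 6088 cells with 25898466 UMIs (suffix 2) remained. The median mitochondrial share over all barcodes was 4.07% with suffix 1 and 41.3% with suffix 2. The libraries shared 81 barcode sequences, of which 34 passed the filter in both.

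Interferons are secreted signals against viruses and other microbes. Type I interferons and interferon gamma bind their own receptors, and the JAK kinases then activate STAT proteins. A complex that includes STAT2 and IRF9 binds the interferon-stimulated response element (ISRE), while the response to interferon gamma acts through the gamma-activated site (GAS). The genes so switched on sense viral RNA and DNA, block viral replication, help to present antigens and feed back on the response. Liver macrophages, endothelial cells and hepatocytes can all respond.

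Promoters were looked at because members that move together often share such elements. RefSeq promoters on GRCm38.p6 were matched by symbol for 32 of the 43 members. The ISRE-type motif was searched as GAAANNGAAA on both strands, the other strand reading TTTCNNTTTC, in the 250 bases before the start. It was found for 15 of 32 members (46.9%) and for 936 of 27025 genes in the table (3.46%). The GAS-type motif TTCNNNGAA, which reads the same on both strands, was found for 8 members (25%) and for 8.13% of all genes in the table. These matches describe letters and were not tested as binding sites. The windows of 30 bases below are shown because they hold ISRE-type matches. Ifit1, Isg15 and Rsad2 were at least 2-fold higher with suffix 1 in at least 4 classes. Bst2, Gbp2, Igtp, Oas1a and Stat2 were so in no class. Ifi27l2b, Iigp1 and Ifi27, which were so in the most classes, had no promoter matched by symbol. Capitals mark the matches, and overlapping matches run together.
Ifit1 (chr19:34640784-34640813, plus strand): gTTTCACTTTCcagtctcagTTTCAGTTTC
Isg15 (chr4:156200871-156200900, minus strand): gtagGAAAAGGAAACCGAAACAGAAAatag
Rsad2 (chr12:26456553-26456582, minus strand): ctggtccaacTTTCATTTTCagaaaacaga
Bst2 (chr8:71537580-71537609, minus strand): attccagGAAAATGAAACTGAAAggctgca
Gbp2 (chr3:142620594-142620623, plus strand): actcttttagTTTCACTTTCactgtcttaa
Igtp (chr11:58199512-58199541, plus strand): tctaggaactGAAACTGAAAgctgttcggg
Oas1a (chr5:120907526-120907555, minus strand): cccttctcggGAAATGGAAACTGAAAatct
Stat2 (chr10:128270266-128270295, plus strand): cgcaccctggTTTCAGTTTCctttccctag

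Both kinds of member thus carried the motif. Of 22 matched members that were at least 2-fold higher with suffix 1 in at least 1 class, 10 had a match, and of 10 matched members with no such class, 5 had one. Irf7, Oasl1 and Ifi44 had no match in these 250 bases, which says only that these letters are not in this window.

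Cells were placed in classes by marker genes. Of 15 classes looked for, the hepatocyte-like class was split at 5000 UMIs, and 11 classes had at least 40 cells in both libraries and were compared. Their cells with suffix 1 and suffix 2 were 493 and 467 deep hepatocyte-like, 8033 and 3331 shallow hepatocyte-like, 271 and 481 Kupffer or macrophage-like, 534 and 514 T-like, 191 and 162 B-like, and 123 and 142 endothelial-like. The smaller classes were 123 and 48 neutrophil-like, 108 and 91 plasmacytoid dendritic-like, 43 and 53 conventional dendritic-like, 71 and 53 NK or ILC1-like, and 268 and 111 erythroid-like cells. None of the 43 members was a gating marker. The genes most raised over the other cells included markers of the type in 10 of the 11 classes, such as Cd5l and Clec4f in Kupffer or macrophage-like, Ncr1 in NK or ILC1-like and Cd79a in B-like cells. The deep hepatocyte-like class was led by mitochondrial genes, Egfr and Dpyd, with no gating marker among its 10 leading genes. Unsupervised clustering put 12870 cells in 13 hepatocyte-like clusters, and 9 of these clusters, holding 91.4% of those cells, came to over 90% from a single library, so hepatocyte-like cells of the libraries differed in far more than these genes.

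The members were higher in the library with suffix 1 in most cell classes. A gene was compared in a class when it had at least 30 UMIs over both libraries, so a gene could pass through 1 library alone. Of 305 member and class pairs compared, 263 were higher with suffix 1 and 42 with suffix 2, where 56.1% of all 71339 gene and class pairs were higher with suffix 1. Differences of at least 2-fold numbered 83 toward suffix 1 (3.07% of all pairs) and 1 toward suffix 2 (2.17% of all pairs). In all 11 classes the median member was higher with suffix 1, by 1.10-fold in conventional dendritic-like cells up to 2.06-fold in erythroid-like cells, while the median over all compared genes lay between 0.978-fold and 1.18-fold. These values are as counted. When an estimate of hepatocyte RNA was taken off the 9 other classes, the median turned toward suffix 2 in plasmacytoid dendritic-like and NK or ILC1-like cells, and that of erythroid-like cells rested on 2 members. With 1 library a side these ratios compare 2 libraries, not 2 genotypes, and animal, dissociation and genotype cannot be told apart.

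**Figure D1:**
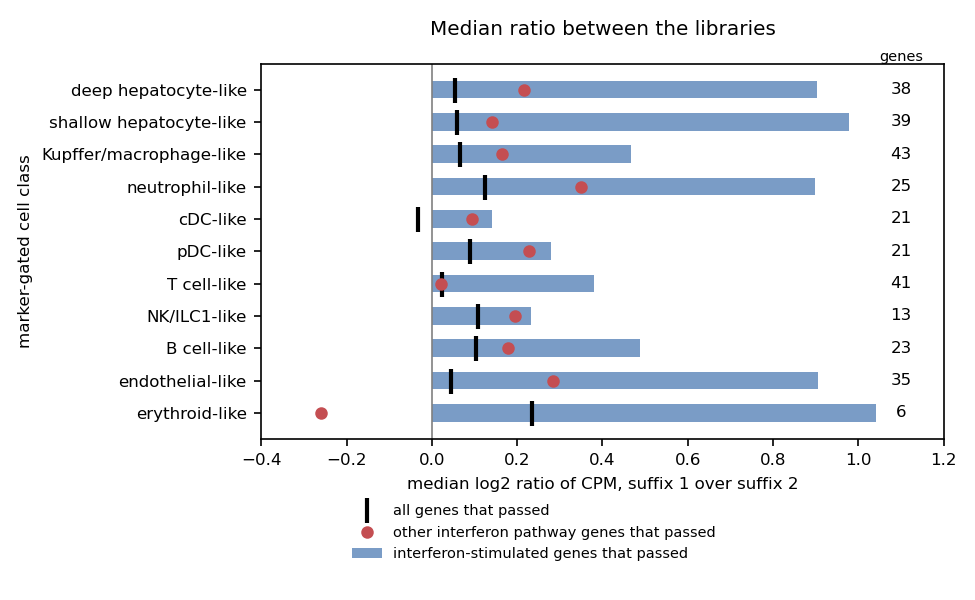
Median log2 ratio of CPM, suffix 1 over suffix 2 (horizontal axis), in each of 11 marker-gated cell classes (vertical axis; cDC and pDC are conventional and plasmacytoid dendritic); bars show interferon-stimulated genes, black ticks all genes and red dots other interferon pathway genes that were compared, and the numbers at the right count the interferon-stimulated genes. The bar exceeds the black tick in all 11 classes and is longest in the hepatocyte-like, neutrophil-like, endothelial-like and erythroid-like classes.

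The shift was wide in hepatocyte-like cells. In deep hepatocyte-like cells 38 members were compared, 37 were higher with suffix 1, and 16 were at least 2-fold higher, where 4.46% of 10367 genes were. Gbp2 alone was at least 2-fold higher with suffix 2 (2.75% of all genes). The median member ratio was 1.87, against 1.04 over all genes. Shallow hepatocyte-like droplets gave a like picture, with 39 members compared, 35 higher with suffix 1 and 19 at least 2-fold higher (3.27% of 9843 genes). None was at least 2-fold higher with suffix 2 (3.18% of genes), and the median was 1.97.

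Endothelial-like cells showed the shift in each of the 35 members compared. With hepatocyte RNA taken off, 32 of the 34 left were higher with suffix 1, 12 of them at least 2-fold. As counted, 14 of the 35 were at least 2-fold higher with suffix 1, where 2.02% of 6697 genes were. None was at least 2-fold higher with suffix 2 (1.93% of genes). The median ratio was 1.87 among members and 1.03 over all genes. Neutrophil-like cells had 22 of 25 members higher with suffix 1 and 11 at least 2-fold higher, but here 8.83% of 2572 genes were, and only 48 cells came from suffix 2. None was at least 2-fold higher with suffix 2 (2.8% of genes), and the median was 1.86.

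Kupffer or macrophage-like cells were the only class in which all 43 members were compared. There 41 were higher with suffix 1, but only 3 by at least 2-fold (1.76% of 10103 genes), and none was 2-fold higher with suffix 2 (1.27%). The median was 1.38. T-like cells had 32 of 41 members higher with suffix 1, 5 by at least 2-fold (1.74% of 9903 genes) and none in the other direction (1.14%), with a median of 1.30. B-like cells had 21 of 23 higher, 5 by at least 2-fold (3% of 5933 genes) and none in the other direction (2.06%), with a median of 1.40.

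The remaining lymphoid and dendritic classes had the lowest median ratios, 1.10 in conventional dendritic-like, 1.17 in NK or ILC1-like and 1.21 in plasmacytoid dendritic-like cells. Plasmacytoid dendritic-like cells, a type known as a strong source of type I interferon in viral infection, had 13 of 21 members higher with suffix 1 and 1 by at least 2-fold, Isg15 (2.2% of 6103 genes, 2.23% toward suffix 2). Conventional dendritic-like cells had 14 of 21 higher and 4 by at least 2-fold (2.12% of 5517 genes, 2.66% toward suffix 2). NK or ILC1-like cells had 8 of 13 higher and 2 by at least 2-fold (4.54% of 3038 genes, 1.94% toward suffix 2). None of the members was 2-fold higher with suffix 2 in these classes, where the shares in parentheses give all genes. With hepatocyte RNA taken off, 9 of 20 were higher with suffix 1 in plasmacytoid dendritic-like cells, where Isg15 fell to 1.90-fold, 6 of 12 in NK or ILC1-like cells and 10 of 19 in conventional dendritic-like cells. In 6 of the 11 classes, these 3 and the neutrophil-like, T-like and B-like cells, the median lower bound of the members' counting intervals lay under a ratio of 1, as in NK or ILC1-like cells (0.656 to 2.14).

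Erythroid-like cells, which carry few members, allowed 6 to be compared. Of these 5 were higher with suffix 1 and 3 by at least 2-fold, where 9.9% of 1263 genes were, and none was with suffix 2 (3.48% of genes). Their summed member level was the lowest of the compared classes, 754.5 CPM (95% interval 704.9 to 806.8) in the suffix 1 library and 408.3 CPM (351.1 to 472.1) in the suffix 2 library.

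Hepatocyte transcripts were also counted in the other classes, and whether they came from free RNA or from doublets was not tested. Hepatocyte markers made up 1.47% to 3.66% of UMIs with suffix 1 and 1.59% to 4.27% with suffix 2 in the 9 other classes, against 8.11% and 9.49% in shallow hepatocyte-like droplets. Scaled by these shares, hepatocyte RNA could carry 98.5% and 84.6% of the member UMIs of erythroid-like cells, 36.3% and 37.4% of those of B-like cells, 31.1% and 22.5% of those of NK or ILC1-like cells, 27.3% and 24.5% of those of endothelial-like cells, and 14.3% and 10.7% of those of Kupffer or macrophage-like cells. The shares in the 4 classes not named here lay between 8.11% and 21%. With that RNA taken off, the median log2 ratio of suffix 2 over suffix 1 was -0.85 in neutrophil-like, -0.77 in endothelial-like, -0.71 in erythroid-like, -0.33 in Kupffer or macrophage-like, -0.29 in B-like (before, -0.49), -0.22 in T-like and -0.09 in conventional dendritic-like cells. It turned toward suffix 2 in plasmacytoid dendritic-like and NK or ILC1-like cells, at 0.05 and 0.07. In erythroid-like cells 2 members were left to compare and neither was at least 2-fold higher with suffix 1. Over these 9 classes, 48 of 228 pairs were at least 2-fold higher with suffix 1 and 0 with suffix 2 as counted. With that RNA taken off, these were 33 and 8 of the 217 left to compare. The share over all genes was not counted with it taken off. Among the 8, Ifi27 in Kupffer or macrophage-like, NK or ILC1-like and endothelial-like cells had 0 UMIs left with suffix 1. So did Iigp1 in neutrophil-like cells, and a floor of 3 UMIs in place of 0 set these ratios. Of the 191 pairs higher with suffix 1 as counted, 20 turned toward suffix 2. The 20 include Bst2 in neutrophil-like cells, where 7.46 and 0 UMIs were left and only the floor gave that direction.

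**Figure D2:**
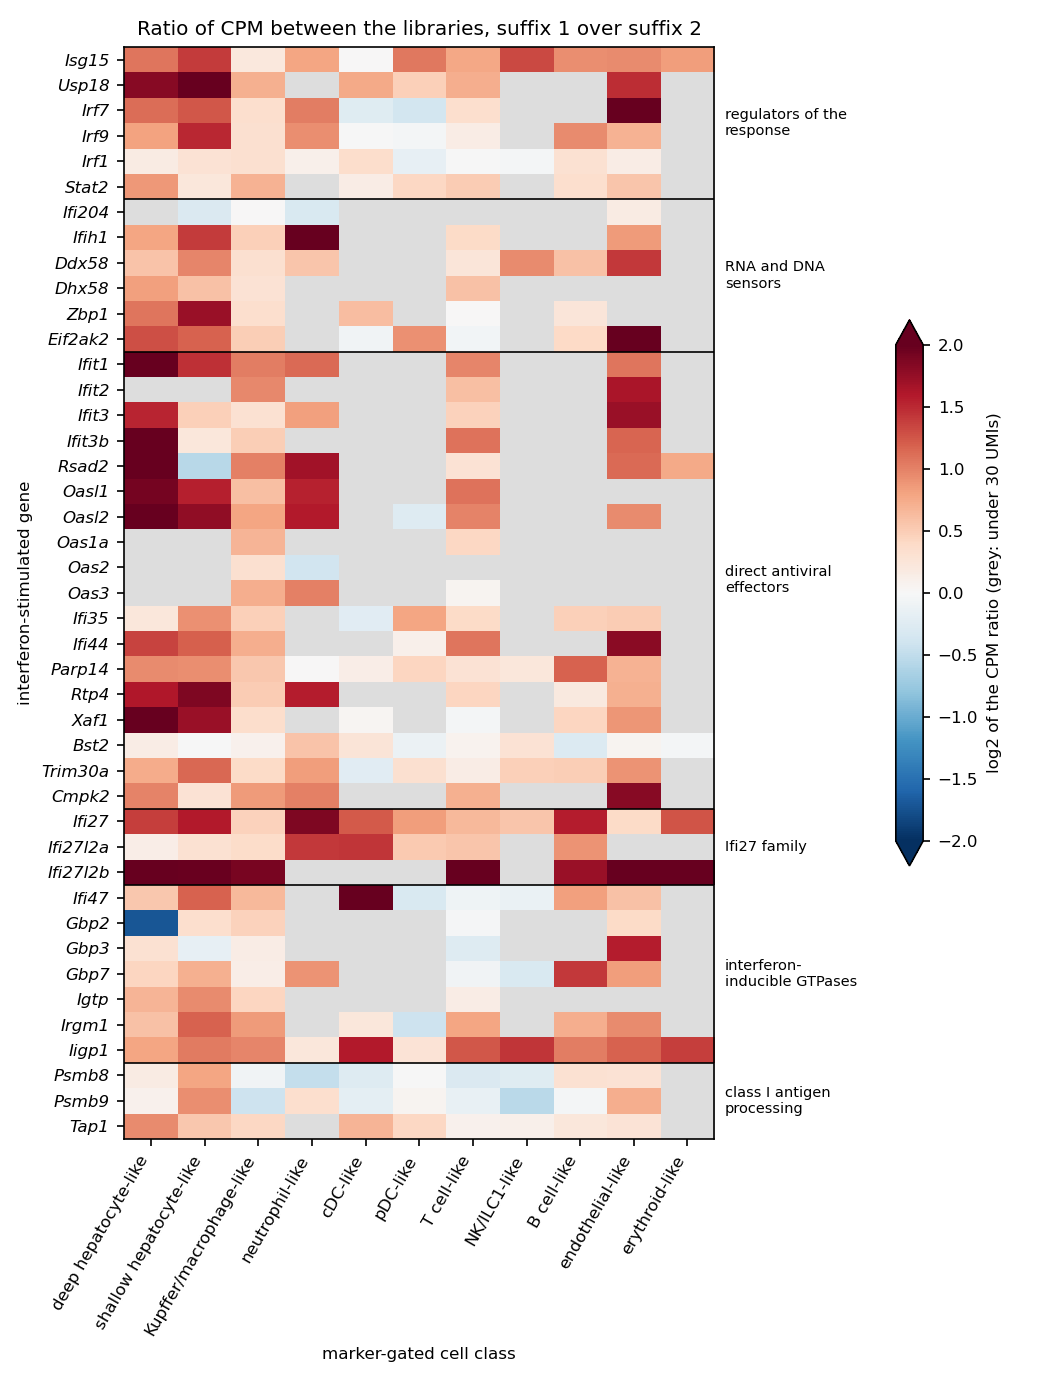
Log2 ratio of CPM, suffix 1 over suffix 2 (colour, red for higher with suffix 1, blue for higher with suffix 2, grey for under 30 UMIs, colours saturating at 2 and -2), for 43 interferon-stimulated genes (vertical, grouped by role) in 11 marker-gated cell classes (horizontal). Red covers most values of regulators, sensors, antiviral effectors and the Ifi27 family, while Bst2, Psmb8, Psmb9, Irf1 and Ifi204 are pale in most classes, and Gbp2 in deep hepatocyte-like cells is the darkest blue cell.

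Among the 6 regulators of the response, 5 had intervals above a ratio of 1 in deep hepatocyte-like cells, whereas that of Irf1 held 1, at 4.74 and 4.24 CPM, a ratio of 1.12 (0.707 to 1.81). Isg15, a ubiquitin-like protein attached to other proteins, was higher with suffix 1 in each of the 11 classes. In shallow hepatocyte-like droplets it was at 112.2 CPM with suffix 1 and 42.5 CPM with suffix 2, a ratio of 2.64 (exact conditional binomial 95% interval 2.28 to 3.08). In T-like cells it was at 116.9 and 68.4 CPM, a ratio of 1.71 (1.42 to 2.06). Conventional dendritic-like cells held it at 73.7 and 73.3 CPM, a ratio of 1.00 (0.650 to 1.55), the smallest of the 11. Isg15 was higher with suffix 1 in 9 of the 11 with hepatocyte RNA taken off, turning to 0.573 in Kupffer or macrophage-like and 0.815 in conventional dendritic-like cells, and was 1.22 in B-like cells (before, 1.91).

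Usp18, the protease that removes ISG15 and damps the type I interferon receptor, was compared in 7 classes and was higher with suffix 1 in all 7. It was at 20.5 and 5.84 CPM in deep hepatocyte-like cells, a ratio of 3.51 (2.51 to 5.03). Irf7, a transcription factor that sustains type I interferon production, split the classes. In endothelial-like cells it was at 69.3 and 17.1 CPM, a ratio of 4.05 (2.14 to 8.32), and in deep hepatocyte-like cells at 55.03 and 25.3 CPM, a ratio of 2.18 (1.84 to 2.59). In plasmacytoid dendritic-like cells, which express it constitutively, it went the other way, at 169.7 and 219.0 CPM, a ratio of 0.775 (0.605 to 0.993). Limiting deep hepatocyte-like cells to at most 10% mitochondrial UMIs removed the difference in Irf7 there, with a ratio of 0.981.

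Stat2 and Irf9, which act together on the ISRE, were higher with suffix 1 in 8 of 8 and 7 of 9 classes compared, where Irf9 in T-like cells went from 1.11 to 0.965 with hepatocyte RNA taken off. Stat2 was at 71.5 and 39.3 CPM in deep hepatocyte-like cells, a ratio of 1.82 (1.59 to 2.09), and at 177.4 and 110.0 CPM in Kupffer or macrophage-like cells, a ratio of 1.61 (1.40 to 1.85). Irf1, which responds most to interferon gamma, was at 93.5 and 94.4 CPM in T-like cells, a ratio of 0.991 (0.831 to 1.18). Its ratio was between 0.892 and 1.27 in the 10 classes compared.

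The sensors of foreign RNA and DNA, 6 members, were shifted in hepatocyte-like and endothelial-like cells, with median ratios of 1.77 in deep hepatocyte-like, 2.11 in shallow hepatocyte-like and 2.19 in endothelial-like cells. Eif2ak2, the kinase PKR that halts translation on sensing double-stranded RNA, was at 32.1 and 13.2 CPM in deep hepatocyte-like cells, a ratio of 2.44 (1.94 to 3.11). It was at 113.0 and 28.5 CPM in endothelial-like cells, a ratio of 3.96 (2.42 to 6.80). Ifih1, the RNA sensor MDA5, was at 108.8 and 15.8 CPM in neutrophil-like cells, a ratio of 6.90, but the suffix 2 value rests on 2 UMIs and the interval runs from 1.78 to 59.0. Ifi204, a DNA sensor, was at 293.2 and 291.4 CPM in Kupffer or macrophage-like cells, a ratio of 1.01 (0.914 to 1.11), and its interval held 1 in each of the 4 classes compared.

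The direct antiviral effectors, 20 members with Mx1 and Mx2 lacking a row, held the highest median ratio of the 6 roles in deep hepatocyte-like cells. There all 14 compared were higher with suffix 1, 9 by at least 2-fold (4.46% of all genes in that class), with a median ratio of 2.94. Ifit1, which binds viral RNA lacking host caps, was at 55.3 CPM (701 UMIs) with suffix 1 and 5.26 CPM (36 UMIs) with suffix 2, a ratio of 10.5 (7.53 to 15.2). Rsad2, the enzyme viperin, which makes a chain terminator of viral RNA synthesis, was at 13.4 and 1.31 CPM, a ratio of 10.2 (5.25 to 22.7). With cells of at most 10% mitochondrial UMIs the ratio of Rsad2 was 3.56, and without the cell with the most member UMIs in each library it was 7.47, while that of Ifit1 was 11.9 and 10.5. Oasl1 and Oasl2, relatives of the oligoadenylate synthetases, had ratios of 3.76 (2.92 to 4.91) and 4.77 (2.05 to 13.6).

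Shallow hepatocyte-like droplets departed from the deep cells in Rsad2. It was there at 6.99 CPM with suffix 1 and at 10.3 CPM with suffix 2, a ratio of 0.678 (0.466 to 0.993), opposite in direction to the deep cells, while Ifit1 kept its direction at 26.2 and 9.48 CPM, a ratio of 2.76 (2.02 to 3.87). Outside hepatocytes Rsad2 was higher with suffix 1 in Kupffer or macrophage-like cells, at 138.8 and 69.3 CPM, and in endothelial-like cells, at 154.1 and 69.9 CPM. These are ratios of 2.00 (1.70 to 2.37) and 2.2 (1.57 to 3.14), the former 1.995 with hepatocyte RNA taken off. Neutrophil-like cells had 253.0 and 78.9 CPM of it, a ratio of 3.21 (1.66 to 6.92).

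Ifit1 was compared in 6 classes and was higher with suffix 1 in all 6, at least 2-fold in 5. T-like cells were the class under 2-fold, at 58.8 and 29.8 CPM, a ratio of 1.97 (1.5 to 2.61). In Kupffer or macrophage-like cells it was at 49.9 and 24.6 CPM, a ratio of 2.03 (1.53 to 2.7). Ifit1 stayed higher with suffix 1 in all 6 with hepatocyte RNA taken off, but at least 2-fold in 3, at 1.89 in Kupffer or macrophage-like and 1.97 in endothelial-like cells (before, 2.1). Ifi44, a cytoplasmic antiviral protein, was at 200.3 and 57.1 CPM in endothelial-like cells, a ratio of 3.51 (2.47 to 5.10), against 10.1 and 3.94 CPM in deep hepatocyte-like cells, a ratio of 2.56 (1.68 to 4.04), which was 1.27 at a mitochondrial limit of 10%. Oasl2 was a leading member of neutrophil-like cells, at 617.7 and 205.2 CPM, a ratio of 3.01 (2.00 to 4.72).

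Trim30a, a regulator of inflammatory signaling, was among the 3 members with the most UMIs in Kupffer or macrophage-like cells. It was there at 413.9 and 318.3 CPM, a ratio of 1.30 (1.19 to 1.42), and in endothelial-like cells at 229.8 and 122.7 CPM, a ratio of 1.87 (1.44 to 2.45). Bst2, the membrane protein tetherin that holds budding virions on the cell, was shifted little as counted. In shallow hepatocyte-like droplets it was at 420.5 and 424.9 CPM, a ratio of 0.990 (0.939 to 1.04), and in endothelial-like cells at 423.7 and 406.6 CPM, a ratio of 1.04 (0.887 to 1.22). Plasmacytoid dendritic-like cells, which express it constitutively, had 2316.4 and 2521.2 CPM, a ratio of 0.919 (0.858 to 0.984). Of the 11 classes compared, none differed 2-fold in Bst2 as counted, and its promoter window holds the motif in overlapping copies. Its ratio with hepatocyte RNA taken off was 2.1 in NK or ILC1-like cells, on 31.9 and 11 UMIs left (before, 1.22). It turned to 1.2 in B-like cells. In neutrophil-like cells 7.46 and 0 UMIs were left, and a ratio of 0.925 arose only because that 0 was set to 3 UMIs. No comparison was left in erythroid-like cells.

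The Ifi27 family, small membrane proteins whose genes lie on chromosome 12, was higher with suffix 1 in every class in which its 3 members were compared. Ifi27l2b was at least 2-fold higher with suffix 1 in each of the 7 classes compared. It was at 93.6 and 15.9 CPM in deep hepatocyte-like cells, a ratio of 5.88 (4.83 to 7.22), at 33.0 and 5.35 CPM in T-like cells, a ratio of 6.17 (3.50 to 11.7), and at 22.1 and 5.94 CPM in Kupffer or macrophage-like cells, a ratio of 3.72 (2.22 to 6.48). In erythroid-like cells the ratio of 12.2 rests on 31 UMIs with suffix 1 and 1 UMI with suffix 2, and its interval runs from 2.03 to 495.3. Hepatocyte RNA could carry as much Ifi27l2b as was counted, or more, in Kupffer or macrophage-like (28.5 and 7.97 CPM), endothelial-like and erythroid-like cells, where no comparison was left with it taken off. In T-like and B-like cells the ratios with it taken off were 4.56 and 3.89, on 15.4 and 8.57 UMIs left with suffix 1. With suffix 2, 0 and 1.6 UMIs were left, so the ratio in T-like cells was set by a floor of 3 UMIs in place of 0.

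Ifi27 was compared in all 11 classes and was higher with suffix 1 in all 11, at least 2-fold in 6. It was at 770.3 and 257.2 CPM in shallow hepatocyte-like droplets, a ratio of 3.0 (2.82 to 3.18), and at 282.3 and 94.6 CPM in B-like cells, a ratio of 2.98 (2.24 to 4.03). Hepatocyte RNA could carry 270.9 and 115.6 CPM of Ifi27 in those B-like cells. With it taken off, Ifi27 was left to compare in 7 classes, was higher with suffix 1 in 3 of them, the hepatocyte-like classes and B-like cells, at least 2-fold each, and was higher with suffix 2 in the other 4. In B-like cells that rested on 8.85 UMIs left with suffix 1 and 0 with suffix 2. Of those higher with suffix 2, Kupffer or macrophage-like, NK or ILC1-like and endothelial-like cells had 0 UMIs left with suffix 1. The estimate there exceeded the suffix 1 count, so these ratios were set by the floor of 3 UMIs. T-like cells had 118.5 and 232 UMIs left, a ratio of 0.454. Neutrophil-like, conventional dendritic-like, plasmacytoid dendritic-like and erythroid-like cells had none left to compare. Before this step, endothelial-like cells had the smallest ratio, 1.30 (1.00 to 1.70), at 186.2 and 142.7 CPM, where hepatocyte RNA could carry 311.0 and 103.2 CPM. Ifi27l2a had its UMIs in myeloid and lymphoid classes, with 777.1 and 605.4 CPM in Kupffer or macrophage-like cells, a ratio of 1.28 (1.21 to 1.37). It was at 1132.4 and 426.2 CPM in neutrophil-like cells, a ratio of 2.66 (1.99 to 3.6), and at only 6.87 and 6.28 CPM in deep hepatocyte-like cells, a ratio of 1.09 (0.751 to 1.61).

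The interferon-inducible GTPases, 7 members that attack the membranes around intracellular microbes, varied by gene. Iigp1 was higher with suffix 1 in all 11 classes and at least 2-fold in 7. It was at 536.7 and 238.2 CPM in endothelial-like cells, a ratio of 2.25 (1.88 to 2.71), at 161.6 and 68.4 CPM in T-like cells, a ratio of 2.36 (1.98 to 2.82), and at 539.6 and 312.7 CPM in deep hepatocyte-like cells, a ratio of 1.73 (1.64 to 1.81). With hepatocyte RNA taken off, Iigp1 was left to compare in 8 classes, higher with suffix 1 in 6 and at least 2-fold in 4. It was higher with suffix 2 in neutrophil-like and plasmacytoid dendritic-like cells, where 0 UMIs were left with suffix 1 and the floor of 3 UMIs was used. The ratio was then 2.33 in endothelial-like cells and 10.1 in T-like cells, the latter on 91.6 and 8.03 UMIs left, and no comparison was left in conventional dendritic-like, NK or ILC1-like and erythroid-like cells. Gbp2, a guanylate-binding protein known to respond strongly to interferon gamma, was the exception in deep hepatocyte-like cells. It had 38 UMIs (3.0 CPM) with suffix 1 and 67 UMIs (9.79 CPM) with suffix 2, a ratio of 0.307 (0.200 to 0.463). A single cell held 50 of the 67 UMIs with suffix 2, and without the cell with the most member UMIs in each library 37 and 17 UMIs remained, a ratio of 1.17 (0.644 to 2.22).

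Gbp2 did not show this elsewhere. It was at 43.0 and 31.1 CPM in Kupffer or macrophage-like cells, a ratio of 1.38 (1.05 to 1.82), and at 44.0 and 44.7 CPM in T-like cells, a ratio of 0.985 (0.760 to 1.28). The 1 call of at least 2-fold toward suffix 2 thus rested on 1 cell. In T-like cells 3 of the 7 GTPases were higher with suffix 1, with a median ratio of 0.985, while 6 of 6 were in endothelial-like cells.

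The class I antigen processing members showed the least. Psmb8 and Psmb9, catalytic subunits of the immunoproteasome, and Tap1, a subunit of the peptide transporter, lie together on chromosome 17. Psmb8 was at 448.7 and 547.8 CPM in T-like cells, a ratio of 0.819 (0.759 to 0.883), and at 589.5 and 702.9 CPM in conventional dendritic-like cells, a ratio of 0.839 (0.727 to 0.967), both higher with suffix 2. Psmb9 was at 69.6 and 92.2 CPM in Kupffer or macrophage-like cells, a ratio of 0.755 (0.624 to 0.910). Only in shallow hepatocyte-like droplets did the intervals of both lie above 1, with Psmb8 at 92.7 and 53.8 CPM, a ratio of 1.72 (1.5 to 1.98), and Psmb9 at 68.4 and 36.1 CPM, a ratio of 1.90 (1.61 to 2.25). Tap1 was higher with suffix 1 in all 9 classes compared, by no more than 1.92-fold.

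**Figure D3:**
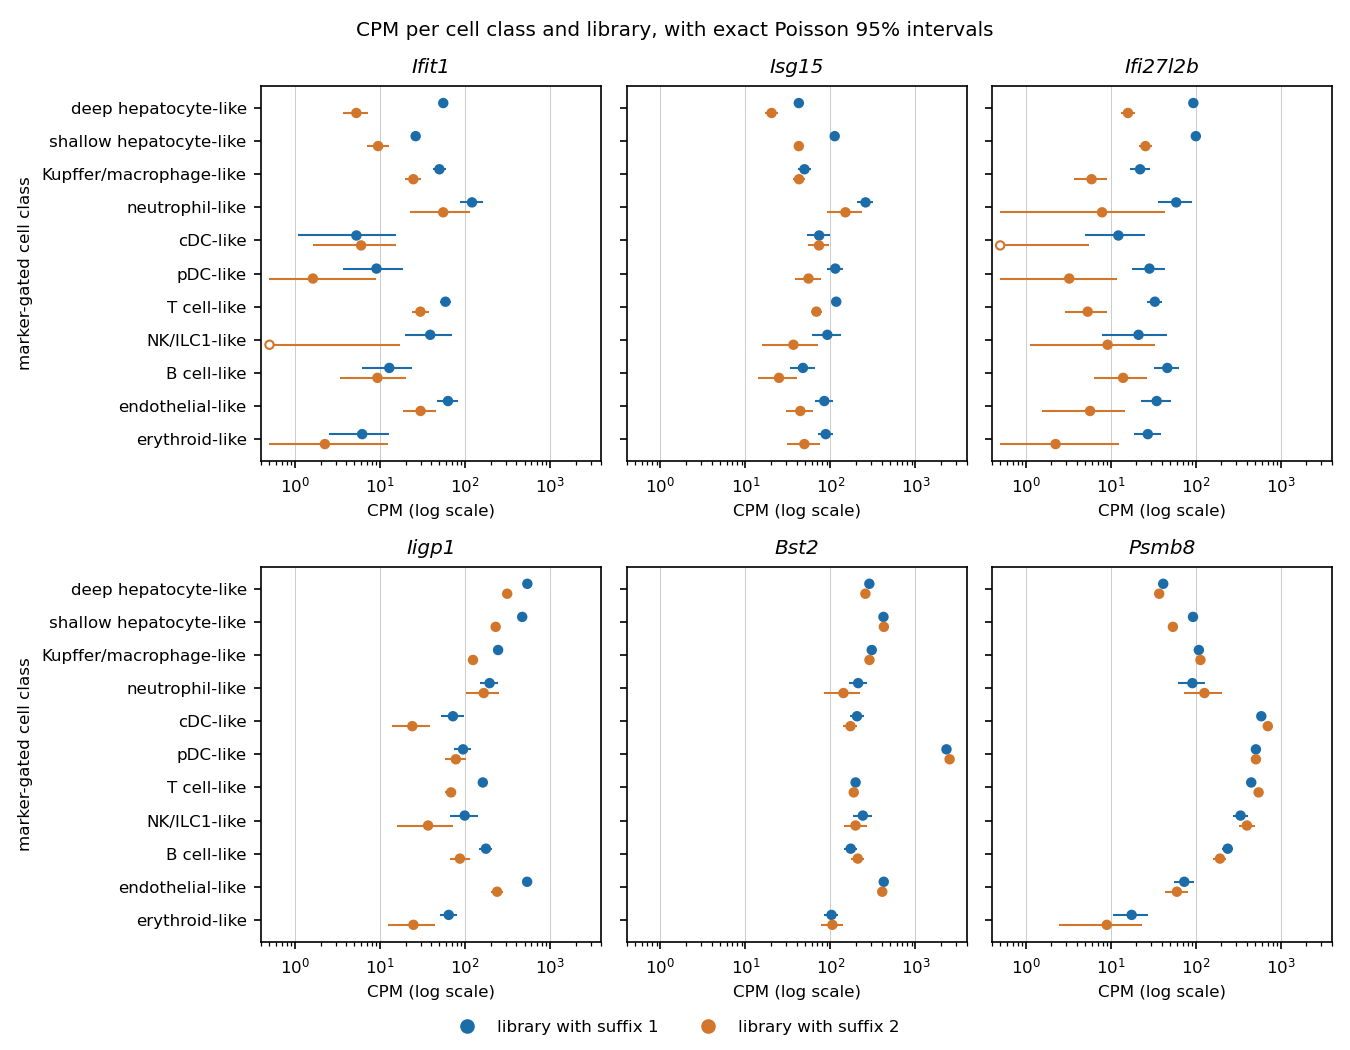
CPM (log scale, horizontal) of 6 members in 11 marker-gated cell classes (vertical) for the library with suffix 1 (blue) and suffix 2 (orange), with exact Poisson 95% intervals; open points mark 0 UMIs and are drawn near the left edge of the axis. Ifit1, Isg15, Ifi27l2b and Iigp1 lie higher with suffix 1 in most classes, while the points of Bst2 and Psmb8 lie close together in most classes.

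Of the 43 members, 24 were higher with suffix 1 in every class in which they were compared, as were 17.1% of the 12817 genes compared in any class. At least 2-fold higher in at least 1 class were 30 members (12.9% of all genes), and in at least 4 classes 9 members (0.445% of all genes). The members were compared in a median of 7 classes and all genes in a median of 5, so the members had more chances. Those 9 were Ifi27l2b, Iigp1, Ifi27, Ifit1, Isg15, Irf7, Rsad2, Oasl1 and Ifi44. With hepatocyte RNA taken off the 9 classes other than hepatocyte-like, 3 of all members reached 4 classes, namely Ifi27l2b, Iigp1 and Ifi44. The other 6 of the list reached 3 each. For Ifi27l2b this includes T-like cells, where 0 UMIs were left with suffix 2. The share over all genes was not counted with that RNA taken off. Only 4 members, Isg15, Ifi27, Bst2 and Iigp1, were compared in all 11 classes, because most fell under 30 UMIs somewhere. Oas1a and Oas2 were compared in 2 classes each. Reads of close relatives such as Ifit3 and Ifit3b, and of the 6 members that overlap another gene on their strand, may have been shared or dropped in counting, so their values are uncertain.

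Single cells were also compared, since a summed level can come from few cells. Each cell was thinned at random to 1000 UMIs, and cells with at least 3 of the 43 members detected were counted in the 7 classes with at least 100 cells per library. In endothelial-like cells 64.2% (exact binomial 95% interval 55.1% to 72.7%) of 123 cells with suffix 1 and 28.9% (21.6% to 37.1%) of 142 cells with suffix 2 reached this. Deep hepatocyte-like cells gave 24.3% (20.6% to 28.4%) and 7.92% (5.64% to 10.8%), and shallow hepatocyte-like droplets 38.3% and 11.3%. In the shallow droplets the intervals were 36.9% to 39.7% and 9.89% to 12.8%. Of the 4 smaller classes, conventional dendritic-like cells went the other way, at 46.5% (31.2% to 62.4%) of 43 cells with suffix 1 and 49.1% (35.1% to 63.2%) of 53 with suffix 2, while the shares in neutrophil-like, plasmacytoid dendritic-like and NK or ILC1-like cells were higher with suffix 1. These intervals cover the counting of cells within 1 library a side and not the spread between livers.

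Kupffer or macrophage-like cells had 78.2% (72.7% to 83.0%) and 69.6% (65.2% to 73.7%), and T-like cells 53.4% (49.0% to 57.7%) and 46.5% (42.1% to 50.9%). B-like cells had 33.5% (26.9% to 40.7%) and 18.6% (12.9% to 25.5%). Erythroid-like cells, the class with the lowest level, had 3.09% (1.34% to 5.995%) of 259 cells and 0 of 102 cells. The exact upper bound for the latter was 3.55%, so with 3 members required a difference was not detectable at this number of cells. Thinning left out 3274 and 1387 shallow hepatocyte-like droplets, and 0 to 11 cells per library in the other 6 classes. Without thinning the shares were 95.9% and 78.2% in endothelial-like, 100% and 95.9% in deep hepatocyte-like, and 46.4% and 21.7% in shallow hepatocyte-like cells. They were 96.7% and 95.8% in Kupffer or macrophage-like, 97.8% and 97.1% in T-like, 85.3% and 71.6% in B-like and 36.2% and 13.5% in erythroid-like cells. The median depth was 26589 and 12726 UMIs in deep hepatocyte-like cells and 4269 and 3891 in erythroid-like cells. No class is known to lack these genes altogether, and erythroid-like cells give the lowest share as a background.

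The median number of members per thinned cell was 2 and 1 in deep hepatocyte-like cells, 3 and 2 in endothelial-like cells and 5 and 4 in Kupffer or macrophage-like cells, with suffix 1 given first. The cell with the most member UMIs held 1.06% and 4.89% of the member UMIs of deep hepatocyte-like cells, and 4.03% and 4.16% of those of endothelial-like cells.

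**Figure D4:**
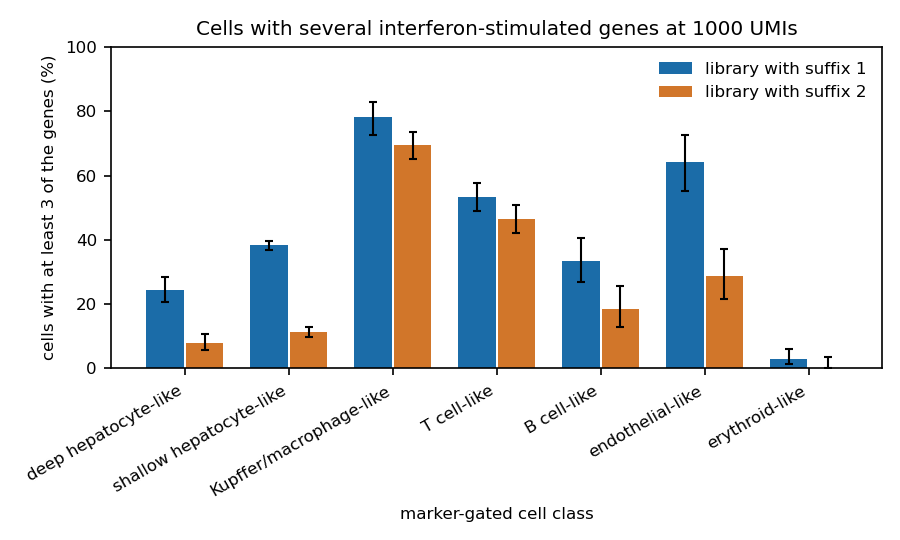
Share of cells (percent, vertical) with at least 3 of the 43 interferon-stimulated genes detected after thinning to 1000 UMIs, in 7 marker-gated cell classes (horizontal), for the library with suffix 1 (blue) and suffix 2 (orange), with exact binomial 95% intervals. The blue bar is higher in all 7 classes, with the widest gaps in endothelial-like and hepatocyte-like cells.

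Of 11 interferon genes looked for, 8, including Ifna1, Ifna2, Ifna4 and Ifnb1, had no UMI in any kept cell, which allows up to 0.072 CPM with suffix 1 and 0.116 CPM with suffix 2. Ifng, the gene of interferon gamma, had 116 UMIs with suffix 1 and 159 with suffix 2 over all kept cells. T-like cells held 56 of them (19.3 CPM) with suffix 1 and 104 (39.7 CPM) with suffix 2. In T-like cells this is a ratio of 0.485 (0.344 to 0.677), opposite in direction to most members there. NK or ILC1-like cells held 7 and 6 UMIs (24.8 and 27.5 CPM), too few to compare. The interferon receptor genes had median ratios of 0.905 in deep hepatocyte-like, 0.821 in endothelial-like and 1.01 in T-like cells. Ifnar1 in deep hepatocyte-like cells was higher with suffix 1, at 19.1 and 11.98 CPM, a ratio of 1.60 (1.24 to 2.08), whereas Ifnar2 there was at 58.8 and 65.0 CPM, a ratio of 0.905 (0.804 to 1.02).

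A further 40 interferon-responsive genes outside the member list were also counted. In deep hepatocyte-like cells 18 of 24 compared were higher with suffix 1, with a median ratio of 1.49, 3 of them at least 2-fold higher and 2 at least 2-fold higher with suffix 2, where all genes gave 4.46% and 2.75%. In shallow hepatocyte-like droplets 19 of 29 were higher, with a median of 1.19 and 2 at least 2-fold apart each way, where all genes gave 3.27% and 3.18%. In endothelial-like cells 20 of 26 were higher, with a median of 1.48. In Kupffer or macrophage-like cells 32 of 40 were higher, with a median of 1.30. In T-like cells the count was 20 of 36, with a median of 1.04. Over all classes, 56.1% of all gene and class pairs were higher with suffix 1. At least 2-fold higher with suffix 1 were 3 in endothelial-like (2.02% of all genes), 3 in Kupffer or macrophage-like (1.76%) and 0 in T-like cells (1.74%). With suffix 2 they were 0 (1.93%), 1 (1.27%) and 1 (1.14%). Genes of class I presentation such as B2m and H2-K1, 12 in all, had median ratios from 0.832 in erythroid-like to 1.14 in endothelial-like cells.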

How the data were processed

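The authors deposited 1 joined matrix of whole-number UMI counts per gene and barcode, made per the file headers with Cell Ranger 7.1.0. The submitters' processing notes also name mm10, bcl2fastq 2.20.0 and STAR 2.7.2a. The sources used here do not give annotation, cell calling or intron counting. Cells with at least 500 UMIs, 200 genes and at most 25% of UMIs from 13 mitochondrial genes were kept. A cell joined a class with at least 35% and at least 3 of the markers of that class. Hepatocyte-like and erythroid-like cells also needed 5% of UMIs from their markers. This limit and the split of hepatocyte-like cells at 5000 UMIs were set after seeing the data. At the smallest number of markers that the gate allowed were 0% to 36.6% of the cells of the compared classes, most in NK or ILC1-like, conventional dendritic-like and erythroid-like cells. Cells in more than 1 gate (256 and 227) or in none (983 and 278) were left out. No doublet caller was run, so doublets within a class remain. Cholangiocyte, monocyte, plasma, stellate or fibroblast and basophil or mast classes were too small.

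For each class and library, summed UMIs became CPM with an exact Poisson 95% interval, and exact conditional binomial intervals were set on ratios. Both cover counting error only. In medians, in counts by direction and fold and in ratios with hepatocyte RNA taken off, a count of 0 was set to 3 UMIs. With that RNA taken off, a remainder below a whole UMI was treated as 0. Without replicates no test was possible, and p-values are left out. The members, lists and gates were chosen with earlier results of these data known. Members named in full are the 3 with the most UMIs in a class and those at least 2-fold apart in the most classes; Usp18, Stat2, Irf9, Irf1, Eif2ak2, Ifih1, Tap1 and Gbp2 were named after their values were seen. Positions and overlaps come from GENCODE M21 on GRCm38, looked up by Ensembl ID. The calls and intervals were tested on simulated data. Python 3.11.15, scipy 1.17.1, scanpy 1.11.5 and edgeR 4.0.16 (for its TMM factors) were used. The alternatives are described in the closing section.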

Additional observations from a re-analysis of the deposited data

Results flagged for a closer look

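Droplets over the mitochondrial limit of 25% entered no comparison, and the members were detected in them. The library with suffix 1 had 5675 such droplets, with the members summed at 1030.7 CPM (95% interval 1016.1 to 1045.4), and the library with suffix 2 had 8886, with 559.2 CPM (550.2 to 568.3). A count of 0 would allow 0.162 and 0.114 CPM. These values were above that limit, which is why they are listed here. Their direction is that of the kept cells. What these droplets hold was not tested.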

How the results depend on the processing

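With 1 library per genotype there is no replicate to leave out, and these values describe 2 libraries. No paired analysis was possible because no test was made and no replicate number exists. Of 152 class medians under an alternative, 150 kept their direction. With hepatocyte RNA taken off, an alternative chosen after seeing the data, the log2 median of suffix 2 over suffix 1 reversed to 0.0487 in plasmacytoid dendritic-like and 0.0653 in NK or ILC1-like cells. With no minimum per gene, it moved to -0.16 in erythroid-like cells. Single genes were followed only in the 45 pairs of member and class that were at least 2-fold higher with suffix 1 among the 9 members most often so, which makes a ratio above 1 likely. Of their 511 ratios under an alternative, 489 were within the reported interval. In deep hepatocyte-like cells a mitochondrial limit of 10% gave 3.56 for Rsad2, 1.63 for Isg15, 1.27 for Ifi44 and 10.7 for Ifi27l2b. The 1 reversal was Irf7 in deep hepatocyte-like cells, at 0.981 under a mitochondrial limit of 10%. The cause of these changes was not tested.

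The following counts of members at least 2-fold higher with suffix 1 differed by over 1.5 times from the reported ones, in part because the number compared changed. A fold of 1.5 in place of 2 gave 27 in deep hepatocyte-like, 15 in Kupffer or macrophage-like, 7 in conventional dendritic-like, 4 in plasmacytoid dendritic-like, 13 in T-like, 11 in B-like, 26 in endothelial-like and 5 in erythroid-like cells. Over all classes that was 153 of 305 member pairs, beside 10.5% of all gene pairs. No minimum per gene gave 18 of 42 (11 of 25 as reported) in neutrophil-like, 7 of 41 in conventional dendritic-like, 8 of 41 in plasmacytoid dendritic-like, 11 of 41 in NK or ILC1-like, 12 of 43 in B-like and 11 of 39 in erythroid-like cells. Over all classes that was 133 of 462, beside 10.5% of all gene pairs. A minimum of 10 UMIs gave 17 of 39 in neutrophil-like, 5 of 31 in plasmacytoid dendritic-like, 5 of 26 in NK or ILC1-like, 10 of 36 in B-like and 8 of 17 in erythroid-like cells, and 116 of 395 over all classes, beside 6.38% of all gene pairs. For the alternatives that follow, the share of all genes was not counted, so their counts have no background beside them. With hepatocyte RNA taken off the counts were 1 in Kupffer or macrophage-like, 2 in conventional dendritic-like, 0 of 20 in plasmacytoid dendritic-like and 0 of 2 in erythroid-like cells. Keeping cells in more than 1 gate gave 1 in Kupffer or macrophage-like, 3 in plasmacytoid dendritic-like, 3 in T-like and 8 in endothelial-like cells. Clusters in place of gates gave 3 in T-like, 0 of 4 in NK or ILC1-like and 9 in endothelial-like cells. The mean over cells gave 1 in Kupffer or macrophage-like, 0 in plasmacytoid dendritic-like and 3 in T-like cells. Median-of-ratios scaling gave 1 in Kupffer or macrophage-like and 0 in plasmacytoid dendritic-like cells, and TMM scaling 1 in Kupffer or macrophage-like cells. Without the cell with most member UMIs there were 5 in Kupffer or macrophage-like, 1 in NK or ILC1-like and 5 in erythroid-like cells. With 1 more marker in the gate there were 3 in plasmacytoid dendritic-like, 1 in NK or ILC1-like and 1 in erythroid-like cells. A mitochondrial limit of 10% gave 9 of 21 (16 of 38 as reported) in deep hepatocyte-like and 2 of 20 in plasmacytoid dendritic-like cells, and a limit of 50% gave 2 in the latter.

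The count of 1 toward suffix 2, over all classes, was 0 under a mitochondrial limit of 10% and with the mean over cells. It was also 0 without the cell with most member UMIs, and 2 with 1 more marker and with clusters. A minimum of 10 UMIs gave 6 of 395 (4.88% of all gene pairs), and no minimum 19 of 462 (17.2%). Taking hepatocyte RNA off gave 8 of 217 over the 9 classes other than hepatocyte-like, where the share of all gene pairs was not counted.

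Shares of cells were higher with suffix 1 in 35 of 35 pairs of class and setting, over the 7 classes with at least 100 cells per library. Thinned to 2000 UMIs, they were 65.3% and 27.8% in deep hepatocyte-like and 79.5% and 36.6% in shallow hepatocyte-like cells. Kupffer or macrophage-like cells gave 96.4% and 95.4%, and the others 86.1% and 80.5% in T-like, 68.9% and 49.0% in B-like, 90% and 68.8% in endothelial-like and, with suffix 1, 12.6% in erythroid-like cells. With 2 members required, deep and shallow hepatocyte-like cells gave 51.9% and 27.0%, and 67.8% and 34.6%. Kupffer or macrophage-like cells gave 92.5% and 86.0%, and T-like cells 73.2% and 71.2%. B-like cells gave 60.7% and 44.7%, endothelial-like cells 87.8% and 55.6%, and erythroid-like cells 15.1% and 2.94%. A mitochondrial limit of 10% gave 11.5% in deep hepatocyte-like (suffix 2), 40.6% in shallow hepatocyte-like (suffix 1), 85.6% in Kupffer or macrophage-like (suffix 1) and 38.7% in endothelial-like cells (suffix 2). A limit of 50% gave 29.6% and 5.33% in shallow hepatocyte-like and 65.0% in Kupffer or macrophage-like cells (suffix 2).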

Other observations

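Some classes had too few cells to compare. Monocyte-like cells, 38 with suffix 1 and 43 with suffix 2, had the members summed at 6301.2 CPM (95% interval 6016.6 to 6595.9) and 3919.6 CPM (3699.4 to 4149.5). Cholangiocyte-like cells, 38 and 20, had 2468.5 CPM (2353.5 to 2587.7) and 1597.5 CPM (1436.3 to 1771.9). Stellate or fibroblast-like cells, 24 and 38, had 3516.8 CPM (3063.4 to 4018.4) and 1834.0 CPM (1560.8 to 2141.2). Plasma-like cells, 10 and 21, had 3072.4 and 1950.3 CPM, and basophil or mast-like cells, 10 and 8, had 1304.2 CPM (958.3 to 1734.3) and 998.5 CPM (673.7 to 1425.4), with overlapping intervals. Cells in no gate had 2804.4 and 1954.6 CPM, and cells in more than 1 gate 4098.9 and 3699.4 CPM.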
